A study of Drosophila melanogaster with 8 samples.

Results

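At 221 sites in the Drosophila genome the peak of SIN3 220HA was at least 2 times as wide as the peak of SIN3 187HA at the same place. These sites were chosen by the widths of the deposited filtered peaks. A site was taken where each peak shared at least 1 bp with exactly 1 filtered peak of the other isoform and where the SIN3 220HA peak had 2 or more times the width of its partner. Of the 3869 pairs of such partners, 221 met the rule, which is 5.71% of the pairs. The mirror rule, with the SIN3 187HA peak at least 2 times as wide, was met by 83 pairs, or 2.15%. The other 3565 pairs had widths within 2 times of each other and are called pairs of similar width below.

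SIN3 holds together a large complex that carries a histone deacetylase. It does not itself bind a DNA sequence and is brought to chromatin by other proteins, where the deacetylase RPD3 removes acetyl groups from histone tails. Alternative splicing gives Drosophila SIN3 isoforms that differ in their C-terminal part, and SIN3 220 is the main form in S2 cells, a line derived from late embryos. A ChIP-seq peak marks DNA that is over-represented among the precipitated fragments, its width is the stretch over which the caller finds them in excess of the input, and its summit is the base with the most fragments.

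The series held 8 samples in 4 groups of 2 replicates, with an HA immunoprecipitate and input DNA from each of 2 stably transfected S2 lines. In both lines the transgene carried an HA tag, stated to be C-terminal for SIN3 220HA, and stood behind a metallothionein promoter. Copper was added to induce SIN3 187HA but not SIN3 220HA, so isoform and induction changed together and cannot be told apart. Each isoform was studied in 1 stable line. The untagged SIN3 220 of the host cell, which the HA antibody does not see, is strongly depleted in the induced SIN3 187HA line, so the lines also differed in untagged SIN3. The peak lists hold no measure of the level of any of these proteins.

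The replicates had been joined before peaks were called, so each isoform had 1 peak list and no value below has a spread between replicates. No test between the isoforms was made for that reason, and the 95% exact binomial intervals given with shares, like the intervals of medians, cover counting error within the lists alone. The filtered lists held 4903 SIN3 187HA peaks and 5810 SIN3 220HA peaks, of which 78.9% and 66.6% were in a 1-to-1 pair. The lists also differed in depth. The reads piled up at the summit, recovered from the deposited fold enrichment and p-value of each peak, had a median of 125 in the SIN3 187HA list and 189 in the SIN3 220HA list. The lowest background in each list, which is the genome-wide floor set by the caller, stood at 12.1 and 15.2 reads in the same order. All positions are in the dm3 build and count from 1.

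The members combined narrow SIN3 187HA peaks with wide SIN3 220HA peaks. The SIN3 187HA peak was 186 to 1473 bp wide with a median of 478 bp (interval 450 to 499 bp). The SIN3 220HA peak was 398 to 3151 bp wide with a median of 1233 bp (interval 1110 to 1316 bp). Pairs of similar width had medians of 848 bp and 938 bp, so the members lay below the usual width for SIN3 187HA and above it for SIN3 220HA. Among the members, 201 SIN3 187HA peaks (91.0%) were narrower than the median of their list and 167 SIN3 220HA peaks (75.6%) were wider than the median of theirs. The width ratio had quartiles of 2.15 and 2.88, a median of 2.42 and a highest value of 6.74, and 48 members reached a ratio of 3. Over all 3869 pairs the median width ratio was 1.09. Because the rule used the widths, these values describe the members and were not tested.

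**Figure D1:**
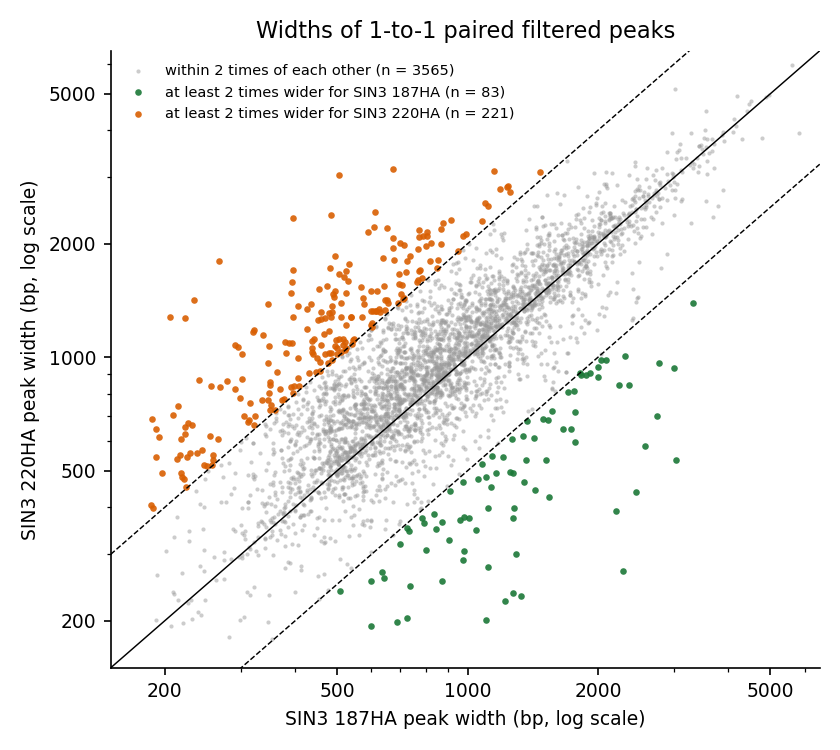
Width of the SIN3 187HA peak (horizontal axis, bp, log scale) against the width of its SIN3 220HA partner (vertical axis, bp, log scale), 1 point per pair. The solid line marks equal width and the dashed lines a ratio of 2 in either direction. The 221 pairs wider for SIN3 220HA (orange) outnumber the 83 pairs wider for SIN3 187HA (green), and most of the 3565 pairs of similar width (grey) lie near the line of equal width.

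The largest width ratio was found on X. The SIN3 187HA peak at 17620174 to 17620440 was 267 bp wide and the SIN3 220HA peak at 17619737 to 17621536 was 1800 bp wide, a ratio of 6.74. The SIN3 220HA peak reached 437 bp further left and 1096 bp further right, left being the side of lower coordinates, and the summits were 29 bp apart. This was also one of the strongest SIN3 220HA peaks. Its fold enrichment of 30.2 placed it at rank 21 of 5810, while the fold enrichment of the SIN3 187HA peak, 7.04, placed it at rank 1720 of 4903. At the summits 91 reads were piled up in the SIN3 187HA list and 979 in the SIN3 220HA list.

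A site on 3L likewise had a strong SIN3 220HA peak over a narrow SIN3 187HA peak, which here was also weak in its list. There the SIN3 187HA peak at 881919 to 882152 was 234 bp wide and the SIN3 220HA peak at 880954 to 882375 was 1422 bp wide, a ratio of 6.08. The extra width was 965 bp on the left and 223 bp on the right, and the summits were 4 bp apart. The SIN3 187HA peak had a fold enrichment of 4.42 at rank 3971 and the SIN3 220HA peak one of 18.8 at rank 144. The pileup was 80 reads in the SIN3 187HA list and 928 reads in the SIN3 220HA list, and the ratio of 11.6 was the highest among the members. The local background was 17.3 and 48.4 reads.

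The other 3 of the 5 largest width ratios had lower SIN3 220HA fold enrichments, between 4.43 and 6.01, and at each of them the SIN3 187HA list held further peaks that had not passed the filter. On 3L, a SIN3 187HA peak at 6167075 to 6167280 (206 bp) lay under a SIN3 220HA peak at 6166444 to 6167723 (1280 bp), with 631 bp to the left, 443 bp to the right and fold enrichments of 3.87 and 5.13. The left flank held 1 filtered-out SIN3 187HA peak at 6166755 to 6166952 with a fold enrichment of 3.88. Also on 3L, a SIN3 187HA peak at 9391927 to 9392431 (505 bp) met a SIN3 220HA peak at 9389391 to 9392428 (3038 bp), with all of the extra 2536 bp on the left. This site had the most filtered-out SIN3 187HA peaks in its extra width, 3 in number, at 9389263 to 9389664, at 9389886 to 9390097 and at 9390746 to 9391161. Their fold enrichments were 3.25, 2.34 and 1.98, beside 3.30 for the SIN3 187HA peak that was kept and 4.43 for the SIN3 220HA peak. Measured from the first to the last of these SIN3 187HA peaks, gaps included, the width ratio of the site was 0.959.

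The only member on chromosome 4, the small dot chromosome, had the fifth largest ratio, 5.94. Its SIN3 187HA peak at 528125 to 528519 was 395 bp wide, and its SIN3 220HA peak at 527074 to 529418 was 2345 bp wide with 1051 bp of extra width to the left and 899 bp to the right. The summits were 28 bp apart, fold enrichment was 4.90 and 6.01, and 1 filtered-out SIN3 187HA peak with a fold enrichment of 2.65 lay at 529083 to 529333.

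The extra width lay mostly on 1 side of the narrower peak at the larger part of the sites, and was as often on the left as on the right. At 130 of the 221 sites (58.8%, interval 52.0 to 65.4%) at least 75% of the extra width was on 1 side of the SIN3 187HA peak. The wide side was the left at 66 of them and the right at 64. At 35 sites (15.8%) all of the extra width was on 1 side, and at 38 sites (17.2%) each side held at least 40% of it. The share with at least 75% on 1 side depends on that percentage. It was 82.8% at a limit of 60% and 39.8% at a limit of 90%. Among the 83 mirror pairs, 54 (65.1%, interval 53.8 to 75.2%) had at least 75% of the extra width of the SIN3 187HA peak on 1 side. Among pairs of similar width, 3043 had a SIN3 220HA peak that reached past its partner at all, and 2332 of these (76.6%, interval 75.1 to 78.1%) had at least 75% of that extra width on 1 side. The share was lower at the members, but the comparison cannot decide whether their extra width was less one-sided. Where the SIN3 187HA peak reaches past its partner at 1 end, all of the extra width must lie on the other side. The SIN3 187HA peak lay wholly inside its partner at 85.5% of the members but at 47.5% of all pairs of similar width. The extra width was also much longer at the members, with a median of 721 bp against 102 bp over all pairs of similar width. Left and right are by coordinate, because no gene strand was assigned.

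The SIN3 187HA peak usually lay inside the SIN3 220HA peak. It was nested at 189 sites (85.5%, interval 80.2 to 89.9%), and at the other 32 it reached past the end of its partner by a median of 20 bp and at most 130 bp. The total extra width per site ranged from 211 to 2536 bp with a median of 721 bp. The left flank had a median of 316 bp and quartiles of 128 and 597 bp, and the right flank a median of 293 bp and quartiles of 125 and 602 bp. The 130 one-sided sites and the 91 others had median width ratios of 2.41 and 2.44 and median pileup ratios of 1.98 and 2.0. The wide side faced the nearer of the neighbouring filtered SIN3 220HA peaks at 71 of the 129 one-sided sites with a neighbour on both sides (55.0%, interval 46.0 to 63.8%), an interval that includes 50%. The distance from a member to the next filtered SIN3 220HA peak had a median of 1809 bp, against 2388 bp for pairs of similar width. It was measured between peak edges, so the wider SIN3 220HA peaks of the members shorten it.

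**Figure D2:**
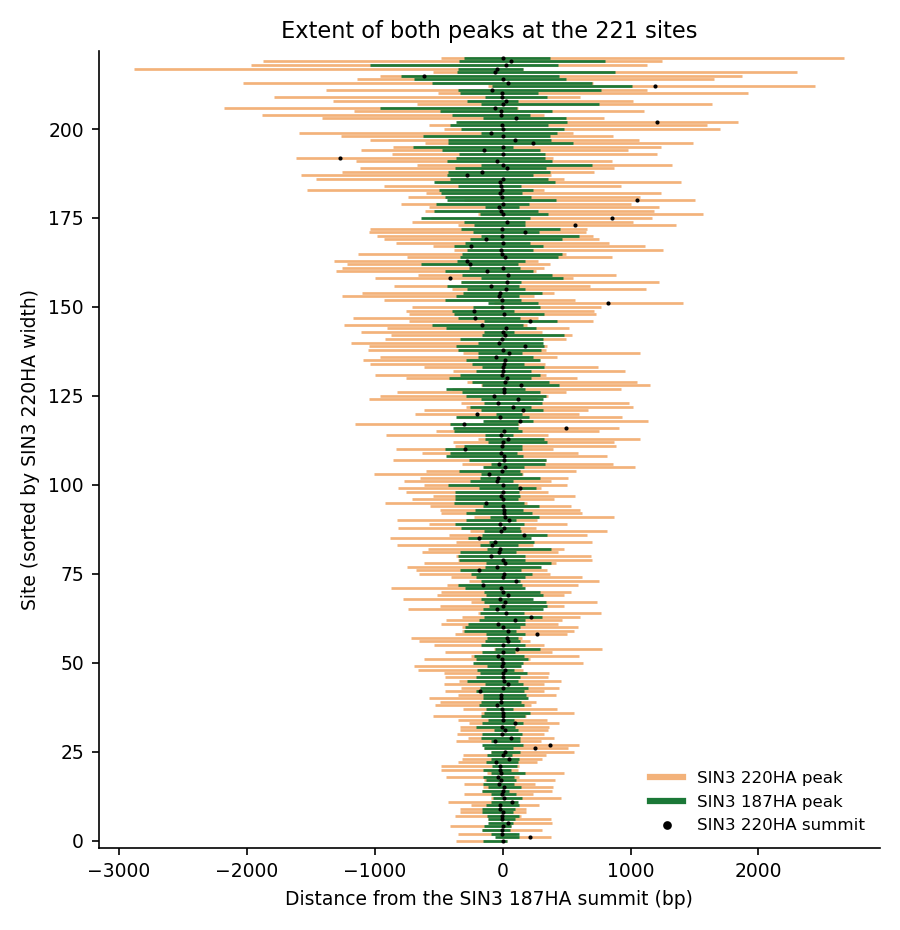
Extent of the SIN3 187HA peak (green) and the SIN3 220HA peak (light orange) at each of the 221 sites, in bp from the SIN3 187HA summit (horizontal axis). Sites are sorted by SIN3 220HA width (vertical axis) and black points mark the SIN3 220HA summit. The orange flanks lie on either side with no common direction, and 207 of the 221 SIN3 220HA summits are inside the SIN3 187HA peak.

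The 3 widest SIN3 220HA peaks among the members showed each arrangement. The widest was on X, where a SIN3 220HA peak of 3151 bp at 11261859 to 11265009 covered a SIN3 187HA peak of 673 bp at 11262039 to 11262711. It reached 180 bp to the left and 2298 bp to the right, and both summits fell on the same base. On 2R, a SIN3 220HA peak of 3117 bp at 19948855 to 19951971 reached 1526 bp left and 443 bp right of a SIN3 187HA peak of 1148 bp. On 3R, a SIN3 220HA peak of 3098 bp at 14122838 to 14125935 was more even, with 927 bp on the left and 698 bp on the right of a SIN3 187HA peak of 1473 bp. Their SIN3 220HA fold enrichments of 5.42, 4.54 and 6.26 were modest, and the extra width met 1, 2 and 2 filtered-out SIN3 187HA peaks.

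The summits stayed close together in spite of the unequal widths. The distance between the summits had a median of 21 bp (interval 16 to 29 bp) and quartiles of 6 and 85 bp. At 10 sites the summits were on the same base, at 155 (70.1%) they were within 50 bp, at 173 (78.3%, interval 72.3 to 83.5%) within 100 bp, and at 196 (88.7%) within 200 bp. Pairs of similar width had a median distance of 19 bp, and 2837 of the 3565 (79.6%, interval 78.2 to 80.9%) were within 100 bp. For the mirror pairs the median was 32 bp, and 63 of 83 (75.9%, interval 65.3 to 84.6%) were within 100 bp. The 3 intervals overlap, so no difference in summit distance between the members and the other pairs was detectable. The shift went either way, with the SIN3 220HA summit to the right at 103 of the 211 sites where the summits differed (48.8%).

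**Figure D3:**
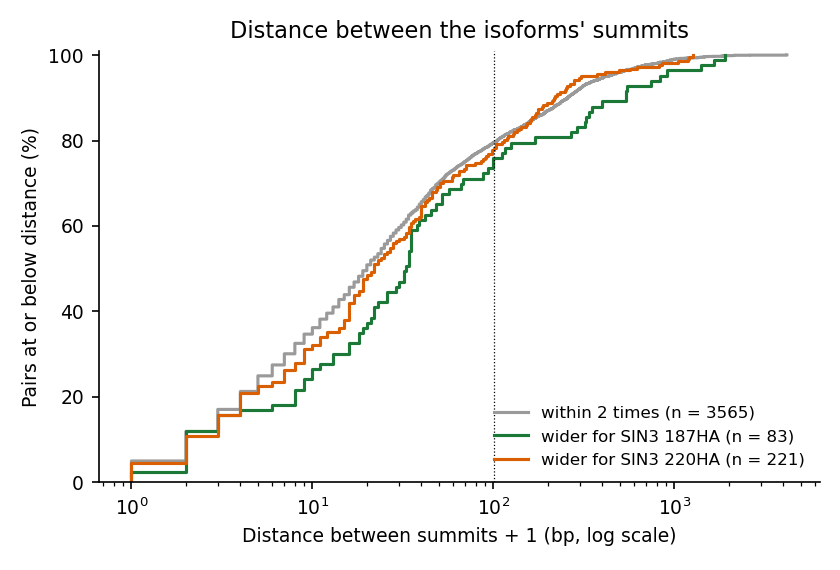
Share of pairs (vertical axis, percent) whose summits are at or below a given distance (horizontal axis, distance plus 1 bp, log scale). The lines stand for pairs wider for SIN3 220HA (orange), wider for SIN3 187HA (green) and of similar width (grey), and the dotted line marks 100 bp. At 100 bp the lines stand at 78.3%, 75.9% and 79.6%.

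Few SIN3 220HA summits lay in the extra width itself. The SIN3 187HA summit was inside the SIN3 220HA peak at all 221 sites, and the SIN3 220HA summit was inside the SIN3 187HA peak at 207 (93.7%, interval 89.6 to 96.5%). In pairs of similar width, where the SIN3 187HA peak is wider, it was inside at 99.9%. At all 14 members where it was outside, the SIN3 220HA summit was on the side with more of the extra width. Their summits were a median of 529 bp apart, and their SIN3 220HA peaks were weaker, with a median fold enrichment of 4.90 against 6.98 at the 207 sites. Among one-sided sites with summits more than 100 bp apart, the SIN3 220HA summit was shifted towards the wide side at 26 of 33 (78.8%, interval 61.1 to 91.0%). A summit outside the narrow peak can fall only in the extra width, so part of this count follows from the geometry.

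The largest distance between summits, 1276 bp, was on 3L. There the SIN3 187HA peak at 2489698 to 2490394 (697 bp) was joined by a SIN3 220HA peak at 2488446 to 2490455 (2010 bp) with 1252 bp of extra width on the left and its summit to the left. On 2R, the SIN3 187HA peak at 10868497 to 10869362 (866 bp) and the SIN3 220HA peak at 10868517 to 10870704 (2188 bp) had summits 1209 bp apart, and 1342 bp of extra width lay on the right. On 3R, the SIN3 187HA peak at 10195171 to 10196267 (1097 bp) and the SIN3 220HA peak at 10195136 to 10197700 (2565 bp) had summits 1188 bp apart, with 1433 bp of extra width on the right. In these 3 sites the SIN3 220HA summit was on the wide side and the extra width held 2, 1 and 2 filtered-out SIN3 187HA peaks.

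The extra width often covered SIN3 187HA peaks that the filter had left out. At 110 of the 221 sites (49.8%, interval 43.0 to 56.6%) the SIN3 220HA peak met, outside its partner, at least 1 peak of the unfiltered SIN3 187HA list that was not in the filtered list. It met 1 such peak at 91 sites, 2 at 18 sites and 3 at 1 site, 130 peaks in all. These peaks were narrow and weak, with a median width of 327 bp, a median fold enrichment of 2.90 and a median pileup of 52.5 reads over a background of 16.6. Of the 130 peaks, 129 had a -log10 p-value under 21.6, the minimum among filtered SIN3 187HA peaks, and 72 were below the 3-fold minimum. Of the 89 such peaks at one-sided sites, 87 (97.8%) lay on the wide side, where most of the extra width was.

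Filtered-out SIN3 187HA peaks covered 47.2 kb of the 178 kb of extra width at the members, or 26.4%. Pairs of similar width give no fair comparison, since their left and right flanks had medians of 21 and 22 bp and the narrowest filtered-out peak met at the members was 178 bp wide. The mirror pairs, which also have long flanks, gave a like value, with 25.7% of 75.8 kb covered by filtered-out SIN3 220HA peaks and 43 of 83 pairs meeting one (51.8%, interval 40.6 to 62.9%). One-sided members met a filtered-out peak at 75 of 130 sites (57.7%), and the others at 35 of 91 (38.5%). One-sided members have most of their extra width in 1 long flank, and its median total was 747.5 bp against 685 bp. These shares are therefore not compared at equal flank length.

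The count of members depended on how filtered-out peaks were treated. When the SIN3 187HA width was measured from the first to the last base of the partner and the filtered-out SIN3 187HA peaks met, 112 of the 221 sites (50.7%, interval 43.9 to 57.4%) still had a ratio of at least 2. Of the 110 sites that met a filtered-out peak, 1 did, and the median ratio of these 110 by that measure was 1.19. That measure counts the gaps between SIN3 187HA peaks as width, while filtered-out peaks covered 26.4% of the extra width at the members. The SIN3 220HA width was not extended in the same way. The 111 sites that met none kept their ratio by definition and had a median of 2.22. The sites meeting a filtered-out peak had wider peaks of both isoforms, 542 and 1468 bp against 395 and 995 bp, while the median pileup ratio was 2.0 and 1.98. Summits were within 100 bp at 81 of the 110 (73.6%) and at 92 of the 111 (82.9%).

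The members tended to be weak sites for SIN3 187HA and were ordinary sites for SIN3 220HA. The fold enrichment of the SIN3 187HA peak ranged from 3.28 to 15.4 with a median of 5.21, and the median percentile in its own filtered list was 35.9 (interval 29.4 to 40.4). The fold enrichment of the SIN3 220HA peak ranged from 3.15 to 30.2 with a median of 6.86, at a median percentile of 57.3 (interval 52.3 to 61.6). Pairs of similar width stood at median percentiles of 56.1 and 62.9. The SIN3 187HA peak was below the median fold enrichment of its list at 153 members (69.2%, interval 62.7 to 75.2%), against 43.6% of pairs of similar width. For the SIN3 220HA peak the shares were 39.4% and 35.3%. The mirror pairs had the reverse order, with a median percentile of 48.5 in the SIN3 187HA list and 20.2 in the SIN3 220HA list. The peak that was narrower thus tended to be the weaker one in its list in both directions. Members were picked by width and were not set beside pairs of equal SIN3 187HA width. The part of that choice in the low SIN3 187HA enrichment was not tested.

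The pileup told the same order in reads. The SIN3 187HA pileup at the members had a median of 96 reads and quartiles of 82 and 123, and the SIN3 220HA pileup a median of 207 reads and quartiles of 144 and 282. It was higher for SIN3 220HA at 219 of the 221 sites, against 92.9% of all pairs. The ratio of SIN3 220HA pileup to SIN3 187HA pileup had a median of 1.99 (interval 1.91 to 2.10), against 1.74 (interval 1.72 to 1.76) for pairs of similar width and 0.975 (interval 0.863 to 1.11) for the mirror pairs. The background ratio had a median of 1.54 (interval 1.46 to 1.60), close to the 1.53 of pairs of similar width. A pileup ratio above 3 was found at 20 members (9.05%, interval 5.62 to 13.6%) and at 5.08% of the pairs of similar width. The higher depth of the SIN3 220HA list moves in the same direction as the extra width, and its part in the widths was not tested.

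The share of members changed along the range of enrichment. When the pairs were ordered by SIN3 187HA fold enrichment and cut into 10 groups of like size, members made up 8.81% and 11.4% of the lowest groups and 0.517% of the highest, which held 2 members among 387 pairs. Ordered by SIN3 220HA fold enrichment, the share moved less, from 3.37% in the lowest group to 8.79% in the third and 3.10% in the highest. Ordered by pileup ratio, members made up 0.518% of the lowest group and 10.6% of the highest, while mirror pairs made up 12.4% of the lowest. Width ratio and pileup ratio had a Spearman correlation of 0.374 over the 3869 pairs and of 0.0770 over the 221 members, all points coming from the same 2 lists. The rule keeps only width ratios of at least 2, and a narrower range can by itself lower a correlation. The value over the members therefore cannot be compared with the value over all pairs.

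**Figure D4:**
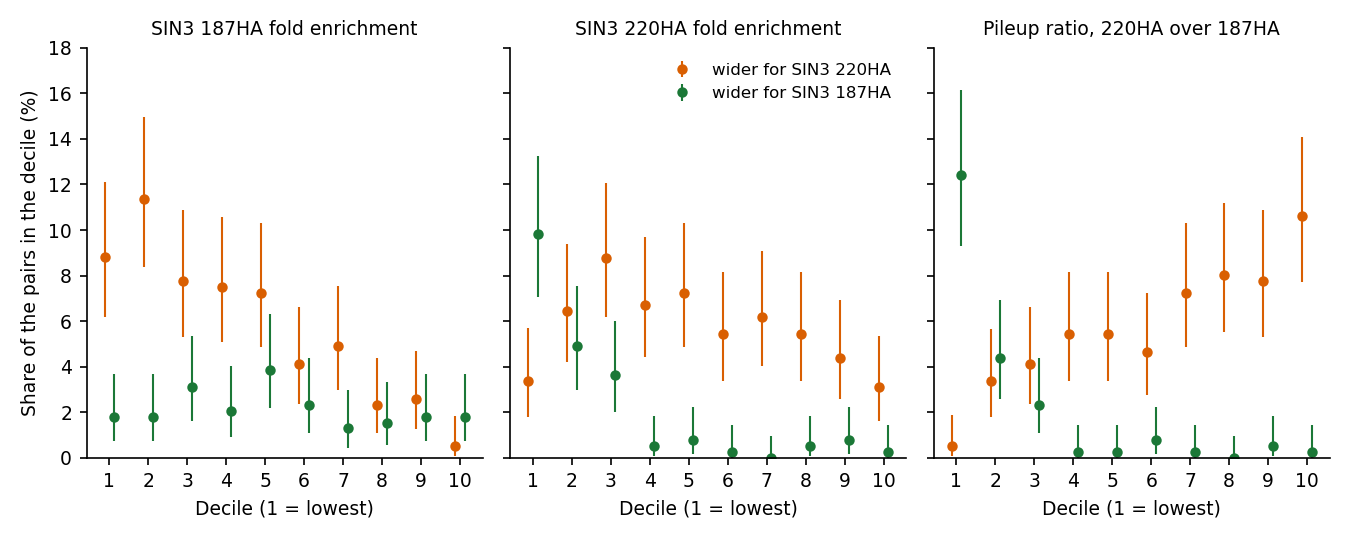
Share of pairs (vertical axis, percent, with 95% exact binomial intervals) at least 2 times wider for SIN3 220HA (orange) or SIN3 187HA (green) in deciles of the pairs ordered by the value named above each panel (horizontal axis, 1 is the lowest decile). The orange share falls from 11.4% in decile 2 to 0.517% in decile 10 of SIN3 187HA fold enrichment and rises to 10.6% in decile 10 of the pileup ratio.

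Besides the X site with the largest width ratio, the highest SIN3 220HA fold enrichments among the members were at a pair of sites on 2R. The first had a SIN3 187HA peak of 250 bp at 12755697 to 12755946 and a SIN3 220HA peak of 515 bp at 12755446 to 12755960, with fold enrichments of 9.03 and 19.8 and pileups of 117 and 514 reads. The other had a SIN3 187HA peak of 515 bp at 12844710 to 12845224 and a SIN3 220HA peak of 1078 bp at 12844457 to 12845534, with fold enrichments of 6.33 and 19.0 and pileups of 144 and 617 reads. Their width ratios of 2.06 and 2.09 were near the lower end. The next site and the 2 in the next paragraph are named after their values were seen. On 2R, the pair of 487 bp at 12716288 to 12716774 and 1368 bp at 12715831 to 12717198 had pileups of 113 and 638 reads. With the X site and the 3L site described first, this pair was among 3 members with a pileup ratio above 5. The 3 sites on 2R named here lay in 1 window of 500 kb, 12500001 to 13000000. Pileup and background were both higher for SIN3 220HA over that window.

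The SIN3 220HA pileup was the lower one at 2 members. On X, the pair of 213 bp at 2337935 to 2338147 and 536 bp at 2337606 to 2338141 had a SIN3 187HA pileup of 112 reads and a SIN3 220HA pileup of 98 reads. On 3R, the pair of 352 bp at 27246395 to 27246746 and 747 bp at 27246052 to 27246798 had pileups of 130 and 126 reads. In both, the wider peak was thus the one with fewer reads at its summit.

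The members were spread over all arms, with the largest share on X. They made up 46 of 548 pairs on X (8.39%, interval 6.21 to 11.04%), 57 of 818 on 2R (6.97%), 45 of 820 on 3L (5.49%), 31 of 694 on 2L (4.47%) and 41 of 970 on 3R (4.23%). One of 10 pairs on chromosome 4 was a member, and none of 9 pairs on other sequences. Together 174 of 3302 pairs on the autosomal arms were members (5.27%, interval 4.53 to 6.09%). The median width ratio over all pairs of X was 1.09, the same as over all pairs of the genome. The typical X pair was thus no wider for SIN3 220HA than the typical pair of the genome.

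Pairs on X had fewer reads in both lists, but no lower enrichment. The median SIN3 187HA pileup was 98 reads over a background of 13.1 on X and 136 reads over 20.6 on the autosomal arms, and the median SIN3 220HA pileup was 156 reads over 20.2 on X and 243 reads over 32.2 on the autosomal arms. Median fold enrichment was 6.51 and 6.25 in the SIN3 187HA list and 7.39 and 7.33 in the SIN3 220HA list, with X first. The part of the lower read level on X in its share of members was not tested. Among pairs with a SIN3 187HA pileup of up to 130 reads, the median of all pairs, members made up 11.1% on X (interval 8.22 to 14.6%) and 8.67% on the autosomal arms (interval 7.31 to 10.2%). Above 130 reads they made up 0.699% on X (interval 0.0177 to 3.83%) and 2.36% on the autosomal arms (interval 1.71 to 3.18%). The intervals of X and the autosomal arms overlap in both bands, though not over all pairs. The bands hold fewer pairs, with 1 member among 143 X pairs above 130 reads, so their intervals on X are wide.

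**Figure D5:**
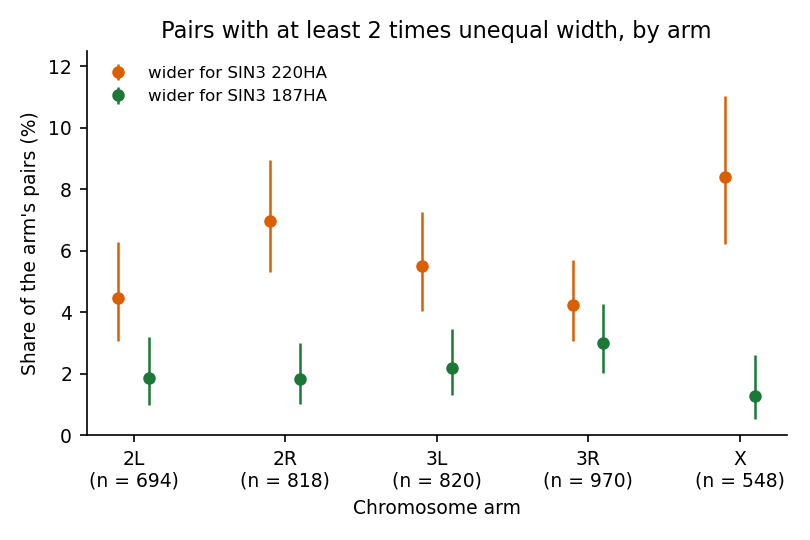
Share of the 1-to-1 pairs of each chromosome arm (vertical axis, percent, with 95% exact binomial intervals) that were at least 2 times wider for SIN3 220HA (orange) or SIN3 187HA (green). The number of pairs is given under each arm (horizontal axis). The share wider for SIN3 220HA runs from 4.23% on 3R to 8.39% on X, with overlapping intervals on neighbouring values.

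The limit of 2 cut through a continuous range. The 3 members just inside it had width ratios of 2 (601 and 1202 bp, the SIN3 187HA peak on 2R at 19273707 to 19274307), 2.002 (542 and 1085 bp, on 2L at 2744791 to 2745332) and 2.01 (457 and 918 bp, on X at 9042872 to 9043328). The 3 pairs just outside it had ratios of 1.995 (651 and 1299 bp, on 3L at 15980987 to 15981637), 1.99 (251 and 500 bp, on 3L at 7313117 to 7313367) and 1.99 (1006 and 2001 bp, on 2R at 12907227 to 12908232). Nothing in these widths sets the 2 sides of the limit apart.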

How the data were processed

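ChIP-seq was performed with an antibody against HA on chromatin of SIN3 187HA and SIN3 220HA S2 lines, cut by MNase and sonication, with input DNA as the control. Per the labels and the methods of the study, reads were aligned to dm3 with Bowtie2, uniquely mapped reads were kept, and peaks were called with MACS2 2.1.0 with duplicates retained. The deposited unfiltered lists give, per peak, positions and the authors' score (not used here), ratio (fold enrichment at the summit over input), and −log10 p-value and −log10 q-value. The deposited filtered lists give positions of peaks that the authors kept by irreproducible discovery rate and at least 3-fold enrichment. Those starts count from 1 and the unfiltered starts from 0. Retained duplicates add to the pileup, and joining replicates leaves no measure of replicate error.

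The sites, their named examples and the lists set beside them were chosen with earlier results of these data known. Filtered peaks were paired by an overlap of 1 bp. Pileup and background were recovered by taking fold enrichment as pileup plus 1 over background plus 1, with a Poisson p-value for exceeding the pileup. The recovered pileup was whole within 0.05 for 9008 of 9011 SIN3 187HA peaks and 8860 of 8862 SIN3 220HA peaks. Named sites were the 5 largest width ratios, the 3 highest SIN3 220HA fold enrichments, the 3 largest summit distances, the 3 widest SIN3 220HA peaks, the 3 pairs on each side of the limit, and the site with the most filtered-out peaks. Code ran in Python 3.11.15 with numpy 2.4.6, pandas 2.3.3, scipy 1.17.1 and matplotlib 3.10.9. Tested on simulated data, it found all 500 planted wider pairs and 0 others, and its overlaps differed from bedtools 2.31.1 for 0 of 4494. No gene names or sequences are given, because no genome or annotation of dm3 was used here.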

Additional observations from a re-analysis of the deposited data

How the results depend on the processing

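Of 35 alternatives, 21 moved a value by less than its counting error, or a count by less than 1.5 times, and 14 moved it by more. The number of sites was 618 at a width ratio of 1.5 and 48 at 3, 441 in the unfiltered lists and 111 where neither peak touched a filtered-out peak of the other isoform. An alternative was added after seeing the data. It took the SIN3 187HA width from the first to the last base of the partner and its filtered-out peaks, gaps included. The number of sites was then 112, and of those 0.893% met a filtered-out peak. That share follows from the measure, since sites meeting no filtered-out peak keep their ratio, though it is counted among the 14 above. Sites wider for SIN3 220HA outnumbered the mirror sites in each of the first 4 settings, by 618 to 204, 48 to 24, 441 to 225 and 111 to 40. The share of one-sided sites was 82.8% at a limit of 60% and 39.8% at 90%, and the share with summits together was 70.1% at 50 bp and 88.7% at 200 bp. Among the 48 sites with a ratio of at least 3, 64.6% met a filtered-out SIN3 187HA peak (interval 49.5 to 77.8%). Their median pileup ratio was 2.11 (interval 1.91 to 2.53) and their median SIN3 187HA percentile 22.9 (interval 18.5 to 36.5). On X lay 29.2% of the 48 (interval 17.0 to 44.1%), against 20.8% of the 221 sites and 14.2% of all pairs. Each of these intervals includes the value of the 221 sites, so no difference at the 48 sites was detectable. The cause of the changes listed here was not tested. At thresholds of 4-fold and 5-fold there were 3394 and 2597 pairs, of which 211 and 153 met the rule. These were not all among the 221 sites, since at 4-fold 47 of them were on X, against 46 of the 221.

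No paired analysis was possible because each list had been called on joined replicates, and leaving out each replicate in turn was not run for the same reason. Edges, summits and pileups therefore have no error beyond counting, the lists differ in depth, and no list from untagged cells was used here.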

Other observations

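A stretch of 2R stood apart in pileup. In windows of 500 kb with at least 5 pairs, 225 in all, the median pileup ratio of a window ranged from 0.993 to 4.24, and the highest value was in the window 12500001 to 13000000 of 2R, chosen after its values were seen. The next highest was 2.90, on 3R. All 13 pairs of the 2R window had a pileup ratio between 2.96 and 5.65, and the median background ratio was 2.81, against 1.53 for pairs of similar width. The SIN3 187HA background was at the floor of its list at 7 of the 13. Of its 13 pairs 3 were among the 221 sites, where members made up 5.71% of all pairs. These are the 2R sites named above for a high SIN3 220HA fold enrichment or a pileup ratio above 5. The median width ratio of the window was 1.56. Pileup and background were thus both higher for SIN3 220HA over the whole window, and what sets it apart was not tested.

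The 221 sites fell in 123 of the 225 windows, with at most 5 in a window, which 4 windows reached. Neighbouring sites on the same chromosome had a median gap of 281311 bp, and 12 of 215 gaps were within 10 kb and 42 within 50 kb.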
